A study of Homo sapiens with 6 samples.

Results

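The axon guidance ligands and receptors were described in SH-SY5Y cells, a human neuroblastoma line of sympathetic nerve lineage, after 1 h of exposure to unconjugated bilirubin. They were chosen by gene symbol as the ephrins, Eph receptors, semaphorins of classes 3 to 7, plexins, neuropilins, Slits, Robo receptors, netrins, UNC5 receptors and DCC. On the array 57 of the 11963 genes with a probe set of their own met the rule, 31 ligands and 26 receptors, through 93 of 22215 probe sets. A probe set is the group of short oligonucleotides that reports 1 transcript, and the probe set with the highest mean over the arrays stood for each gene. The tested cells had received medium with a free bilirubin concentration of 140 nM (Bf 140 nM), free bilirubin being the fraction of the pigment not bound to albumin. The control cells had received medium with the vehicle alone (DMSO 0.6%). Each treatment had 3 arrays, from biological replicates numbered 1 to 3 in both groups, and all cells came from the same line and were collected at the same time. Values are log2 intensities, and each difference is Bf 140 nM minus DMSO 0.6%.

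Axon guidance genes steer growing nerve fibres and migrating neural crest cells, the embryonic population from which the sympathetic lineage arises. Ephrins are anchored in the membrane and bind Eph receptor tyrosine kinases on neighbouring cells. Semaphorins act through plexins, which most of the secreted class 3 members reach by way of neuropilins. Slits repel growth cones through Robo receptors, and netrin-1 attracts them through DCC or repels them through the UNC5 receptors. The comparison asks which of these pairs the cells expressed and whether any of the genes differed after 1 h of the pigment.

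Markers of the lineage and of other cells were read against the median of their array, which 53.3% of all genes exceeded on all 6 arrays. Of 10 noradrenergic neuroblastoma markers measured 8 did so, and TH, the rate-limiting enzyme of catecholamine synthesis, lay below the median on all 6. None of 5 glial and none of 7 endothelial and blood markers lay above it on all 6 arrays, and 6 of 10 mesenchymal markers did. Both replicate 3 arrays stood apart from the other 4. The 3′ minus 5′ difference of the actin control probe sets was 1.49 on the Bf 140 nM array and 1.90 on the DMSO 0.6% array of replicate 3, against 0.10 to 0.50 on the others, a difference that grows when RNA is shorter or less fully copied. Differences are therefore given by replicate number. In bulk RNA, fewer cells with a transcript and less of it in each cell cannot be told apart.

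No guidance ligand or receptor passed the test of Bf 140 nM against DMSO 0.6%. By limma with Benjamini-Hochberg adjustment over all 22215 probe sets, at an adjusted p under 0.10, 0 of 57 genes were higher and 0 were lower, where the share of all probe sets passing was 0% in each direction. At an unadjusted p under 0.05 the count was also 0 of 57, where 0.0585% of all genes were below that level. With the replicate number as a block it was 0 of 57, where 0.828% of all genes were. Both shares lie well under the level itself, so few genes of any set could be counted and these counts say little. Without the block, the shift shared by arrays of the same number stays in the error. SAM, the permutation method named in the study's methods, called 0 as well. Without both replicate 3 arrays limma again called 0 of 57. The differences of the 57 genes ran from -0.13 for EPHA7 to 0.11 for EFNA2, or 0.911 to 1.08 as a fold, with a median of 0.04, against a median of 0.01 over all genes. The median was negative, -0.03, when the DMSO 0.6% array of replicate 3 was left out.

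The width of the intervals without a replicate block includes the shift that arrays of the same replicate number share. The 95% confidence interval of the difference lay within a 2-fold change for 56 of 57 genes and within a 1.5-fold change for 52. The exception at 2-fold was EFNA5, and the others beyond 1.5-fold were EFNB2, PLXNB1, SEMA3A and UNC5C. With the replicate number as a block all 57 intervals lay within 1.5-fold, and their bounds reached from -0.34 to 0.31. These bounds hold for the deposited scale, on which a change in a dim probe set appears smaller than it is.

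Whether a guidance gene was expressed was read from a fixed level, because the values used here carry no detection calls. A gene counted as above the median when its probe set exceeded the median of all probe sets on each of the 6 arrays, medians that lay between 7.73 and 7.97. Of the 57 genes 21 were above it (36.8%), where 53.3% of all genes were. Of the 36 further probe sets of these genes 6 were above it on all arrays. This level is a convention and no proof of expression, since 2 of 24 genes restricted to other tissues, KRT10 and SFTPB, also passed it. Brightness depends on the probes, so the levels of different genes were not ranked against each other.

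**Figure D1:**
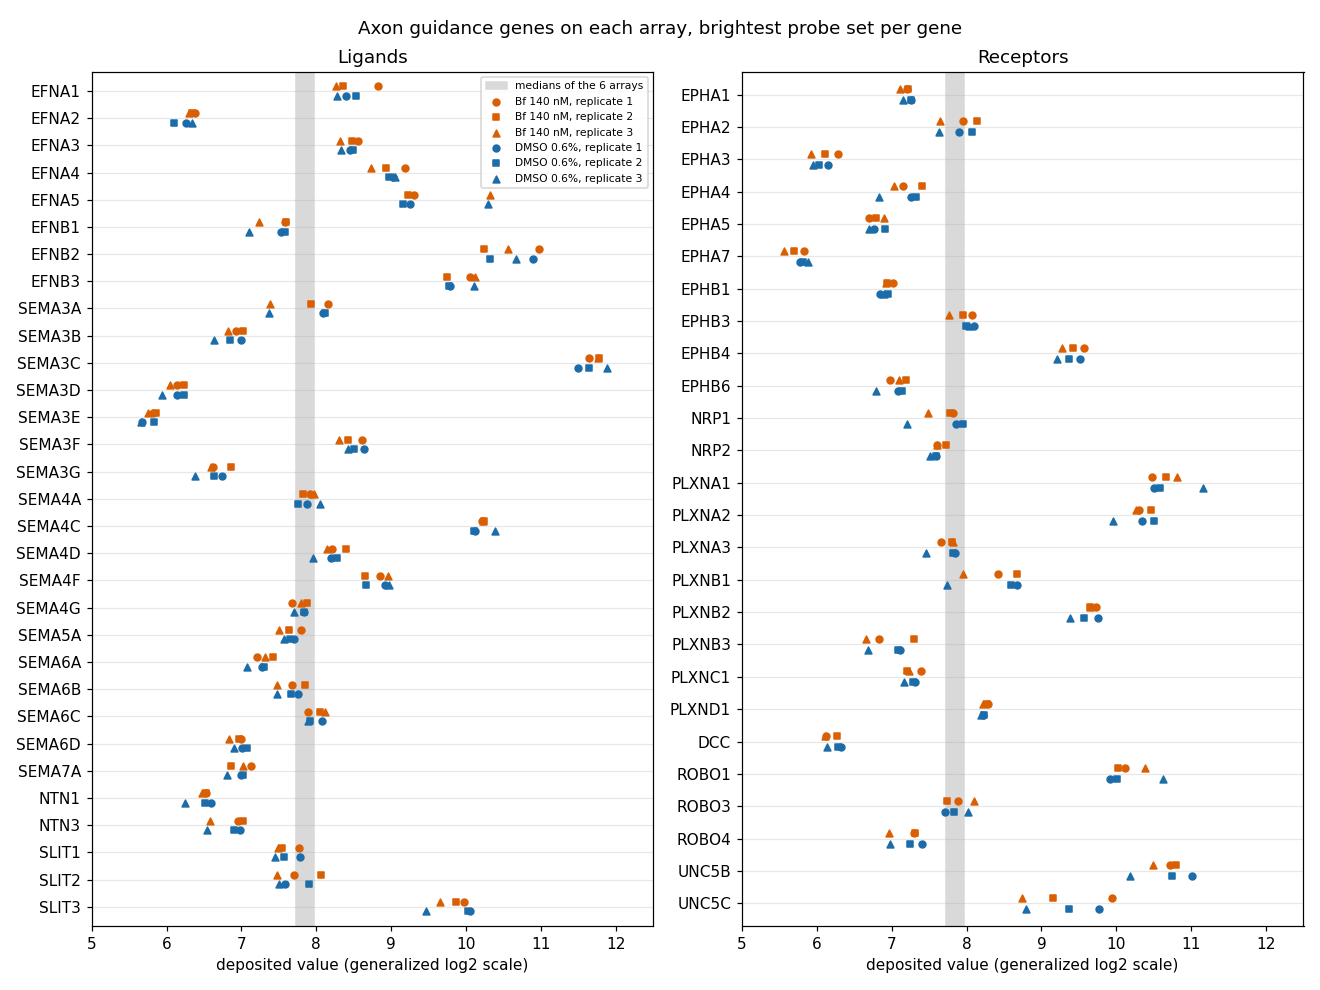
The log2 intensity of the 57 genes, with ligands on the left and receptors on the right, is plotted on all 6 arrays for Bf 140 nM and DMSO 0.6%, and the grey band spans the 6 array medians. The treatments lie close together for most genes, and the replicates of EFNA5 and UNC5C are spread alike in both treatments.

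The ephrins and their receptors gave these counts, which are descriptions of the probe sets and were not tested against each other. Of 8 ephrins 6 were above the median on all arrays (75%): EFNA1, EFNA3, EFNA4 and EFNA5 of the membrane-tethered A class and EFNB2 and EFNB3 of the transmembrane B class. Of 10 Eph receptors 1 was (10%), EPHB4, the receptor that pairs with ephrin-B2 in the separation of arteries and veins. EPHB3 was above the median on 5 arrays and missed it by 0.01 on the other, and EPHA2 was above it on 2. The other probe sets of EFNA5, EFNB3 and EPHB3 exceeded the median on 0 arrays. Those of EFNB2 and EPHB4 exceeded it on all 6. Of the 30 ephrin-A and EphA pairs with both genes measured, 24 had the ligand alone above the level, 6 had neither and 0 had both. By the mean over the 6 arrays 4 of these pairs had both genes above the level, EPHA2 with EFNA1, EFNA3, EFNA4 and EFNA5. The differences of the ephrins lay between -0.06 and 0.11 with a median of 0.05, and those of the Eph receptors between -0.13 and 0.08 with a median of 0.05.

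Semaphorins and their receptors were counted in the same way. Of 18 semaphorins 5 were above the median on all arrays (27.8%), the secreted SEMA3C and SEMA3F and the membrane-bound SEMA4C, SEMA4D and SEMA4F. Of 10 neuropilins and plexins 5 were (50%), a share near that of all genes: PLXNA1, PLXNA2, PLXNB1, PLXNB2 and PLXND1. Neither neuropilin was among them, as the probe set that stood for NRP1 exceeded the median on 1 array and that of NRP2 on none. Another NRP1 probe set exceeded it on 3 arrays, with 7.98, 8.14 and 6.79 in Bf 140 nM, against 7.85, 8.26 and 6.66 in DMSO 0.6%, the low values being those of replicate 3. The other probe sets of SEMA3F, PLXNB1, PLXNB2 and PLXND1 exceeded the median on 0 arrays. That of SEMA4F did so on 1, that of PLXNA2 on 2 and that of SEMA3C on 4. Those of SEMA4C and PLXNA1 exceeded it on all 6. All 8 class 3 semaphorin and neuropilin pairs were measured, and 3 of them had the ligand alone above the level. Differences ran from -0.07 to 0.11 for the semaphorins and from -0.10 to 0.11 for their receptors.

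SLIT3 was the only 1 of 5 Slits and netrins above the median on all arrays (20%). Of the 6 Robo, UNC5 and DCC receptors 3 were (50%), namely ROBO1, UNC5B and UNC5C. NTN1, a ligand of the UNC5 receptors, was below the median on all 6 arrays by its 1 probe set. UNC5B and UNC5C were thus above the level and NTN1 was not, and no other UNC5 ligand was among the listed pairs. DCC, the attractive netrin receptor, was below the median on all 6 arrays too. Over both roles, 12 of 31 ligands (38.7%) and 9 of 26 receptors (34.6%) were above the median.

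Of 89 textbook ligand-receptor pairs, 66 had both genes measured, and 5 of these had both above the median on every array. They were EFNB2 with EPHB4, SEMA4C with PLXNB2, SEMA4D with PLXNB1, SEMA4D with PLXNB2, and SLIT3 with ROBO1. The smallest margin of PLXNB1 over the median was 0.01. The other probe sets of PLXNB1 and PLXNB2 exceeded the median on 0 arrays, and those of EFNB2, EPHB4 and SEMA4C on all 6. Of the further SLIT3 probe sets 1 exceeded the median on 6 arrays and 1 on 0. A further 33 pairs had the ligand alone above it, 11 the receptor alone, and 17 neither. The other 23 pairs involve genes such as EPHB2, ROBO2 and UNC5A and were not analysed here. Against a level taken from the 24 tissue-restricted genes, their 90th percentile on each array, the same 5 pairs were found, but that level, 7.64 to 8.04, nearly coincided with the array medians. The upper quartile of each array left 1, SLIT3 with ROBO1. The mean over the 6 arrays in place of each array gave 13 pairs, 4 of them ephrin-A and EphA pairs, and without both replicate 3 arrays there were 7, the added pairs being EFNB2 and EFNB3 with EPHB3.

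**Figure D2:**
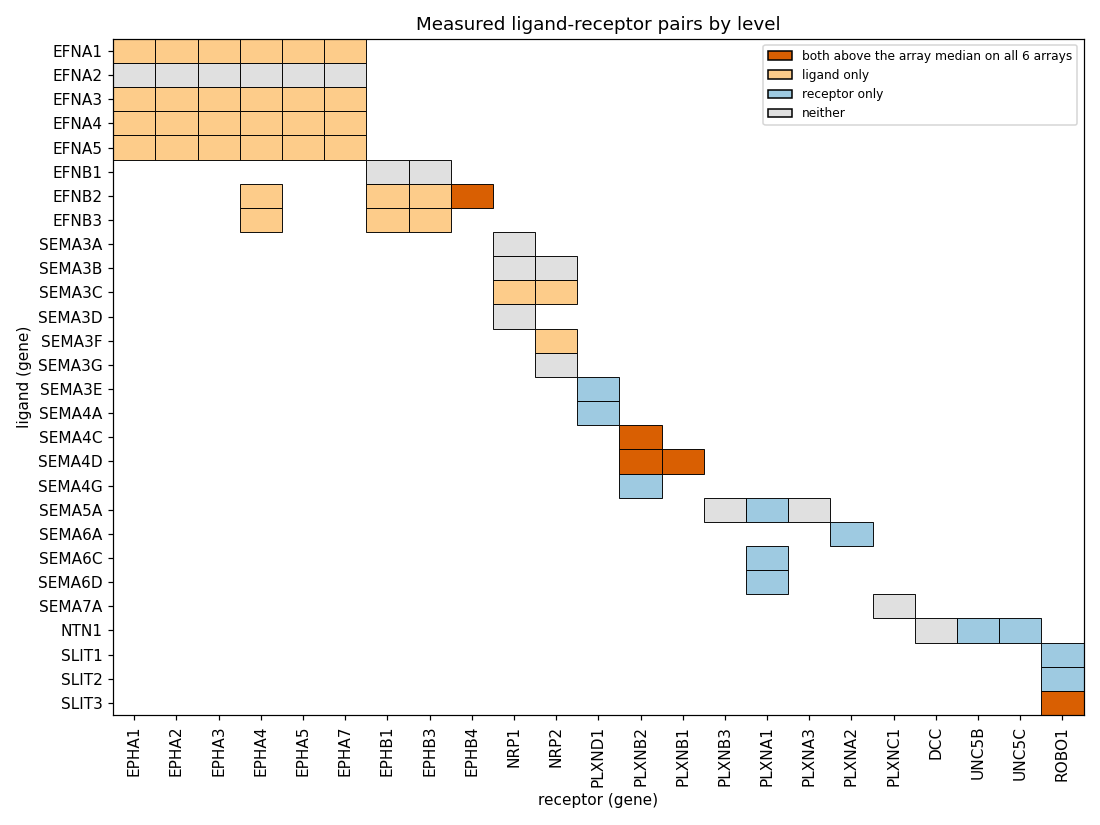
The 66 measured ligand-receptor pairs are shown as a grid, with ligands as rows and receptors as columns. The colour of each pair gives whether both genes, the ligand alone, the receptor alone or neither exceeded the array median on all 6 arrays. Both genes did so in 5 pairs.

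Neither gene of the ephrin-B2 pair was called, and the interval of EFNB2 was wide. EFNB2 had 10.97, 10.23 and 10.56 in Bf 140 nM replicates 1, 2 and 3, against 10.89, 10.32 and 10.67 in DMSO 0.6%. Its groups overlapped and the replicate pairs differed in sign, with a mean difference of -0.04 (95% confidence interval -0.59 to 0.51). With the replicate block the interval was -0.22 to 0.14. The other EFNB2 probe set had differences of -0.23, 0.19 and 0.28 by replicate number, with a mean of 0.08. EPHB4 had 9.56, 9.42 and 9.27 in Bf 140 nM, against 9.52, 9.37 and 9.21 in DMSO 0.6%. Each Bf 140 nM value stood just above the control of its own number, by 0.05, 0.05 and 0.06, while the groups overlapped, and the difference of 0.05 had an interval of -0.24 to 0.35. The other EPHB4 probe set had a mean difference of 0.05 as well.

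Class 4 semaphorins are membrane-bound ligands of the B plexins. SEMA4C had 10.21, 10.24 and 10.23 in Bf 140 nM, against 10.12, 10.10 and 10.38 in DMSO 0.6% (difference 0.03, interval -0.22 to 0.28). SEMA4D, the high-affinity ligand of plexin-B1, had 8.21, 8.40 and 8.14 in Bf 140 nM, against 8.19, 8.27 and 7.96 in DMSO 0.6% (difference 0.11, interval -0.19 to 0.40). SEMA4D was higher in all 3 replicate pairs and SEMA4C in 2 of them, and in each the groups overlapped. PLXNB1 had 8.42, 8.67 and 7.95 in Bf 140 nM, against 8.67, 8.60 and 7.74 in DMSO 0.6%. Its lowest value in either treatment was that of replicate 3, and its difference of 0.01 had a wide interval, -0.72 to 0.74. With the replicate block this interval was -0.20 to 0.23. PLXNB2 had 9.74, 9.65 and 9.65 in Bf 140 nM, against 9.76, 9.56 and 9.39 in DMSO 0.6%. This difference of 0.11 (interval -0.17 to 0.39) came largely from replicate 3, where it was 0.27, against -0.02 and 0.09 in replicates 1 and 2.

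The Slit and Robo pair gave opposite replicate patterns. SLIT3, a secreted repellent, had 9.98, 9.86 and 9.65 in Bf 140 nM, against 10.06, 10.02 and 9.46 in DMSO 0.6%. ROBO1, its receptor, had 10.11, 10.03 and 10.38 in Bf 140 nM, against 9.92, 10.01 and 10.62 in DMSO 0.6%. By replicate number the differences were -0.08, -0.17 and 0.19 for SLIT3 and 0.20, 0.02 and -0.24 for ROBO1, so that the sign of each turned between replicates. The mean differences were -0.02 (interval -0.47 to 0.44) and -0.01 (interval -0.51 to 0.50). Further SLIT3 probe sets had differences of -0.21, 0.11 and 0.08, and of -0.01, 0.09 and 0.24, by replicate number. The sign in replicate 2 therefore depended on the probe set.

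By replicate number the guidance genes as a whole moved little. The median difference of the 57 genes was 0.01, 0.02 and 0.02 in replicate pairs 1, 2 and 3, with 29, 32 and 34 genes above 0 (50.9%, 56.1% and 59.6%). Over all genes the medians were 0.03, -0.01 and 0.02, with 58.9%, 47.3% and 54.5% above 0. The difference was above 0 in all 3 pairs for 9 genes (15.8%), where 11.1% of all genes were, and below 0 in all 3 for 6 genes (10.5%), where 5.17% of all genes were. The 9 were EFNA5, EFNB1, EPHA2, EPHB4, NRP2, PLXND1, SEMA3D, SEMA3E and SEMA4D, and the 6 were DCC, EPHA1, EPHB3, SEMA3F, SEMA4F and SEMA6D. These signs are those of the brightest probe set, and further probe sets of the named genes went both ways. The other EPHB4 probe set was also above 0 in all 3 pairs (0.005, 0.09 and 0.05). The other SEMA3D probe set was below 0 in all 3 (-0.27, -0.04 and -0.16). The count above 0 depended on the scaling of the arrays. After quantile normalization, and again after setting equal array medians, it was 3 (5.26%), where 9.54% of all genes and 8.14% of all genes were above 0 in all pairs under these scalings, so that the share of guidance genes was above that of all genes as deposited and below it after either rescaling. EFNB1 alone was on the list under all 3 scalings.

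The mean difference was positive for 40 of 57 genes (70.2%), against 58.1% of all genes. Quantile normalization gave 34 genes (59.6%), against 50.9% of all genes, and equal array medians gave 35 (61.4%), against 46.4%. By the brightest probe set, DCC, EPHA1, EPHB3 and SEMA3F were below 0 in all 3 pairs under each of the 3 scalings. The count below 0 in all 3 pairs was 6 (10.5%) after quantile normalization, where 8.39% of all genes were. With equal array medians it was 7 (12.3%), where 7.72% were. As deposited, 1 further SEMA3F probe set was above 0 in all 3 pairs (0.20, 0.09 and 0.12). Its remaining probe set had mixed signs, as did those of EPHA1 (-0.03, 0.03 and -0.12) and EPHB3 (-0.13, 0.13 and 0.30).

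**Figure D3:**
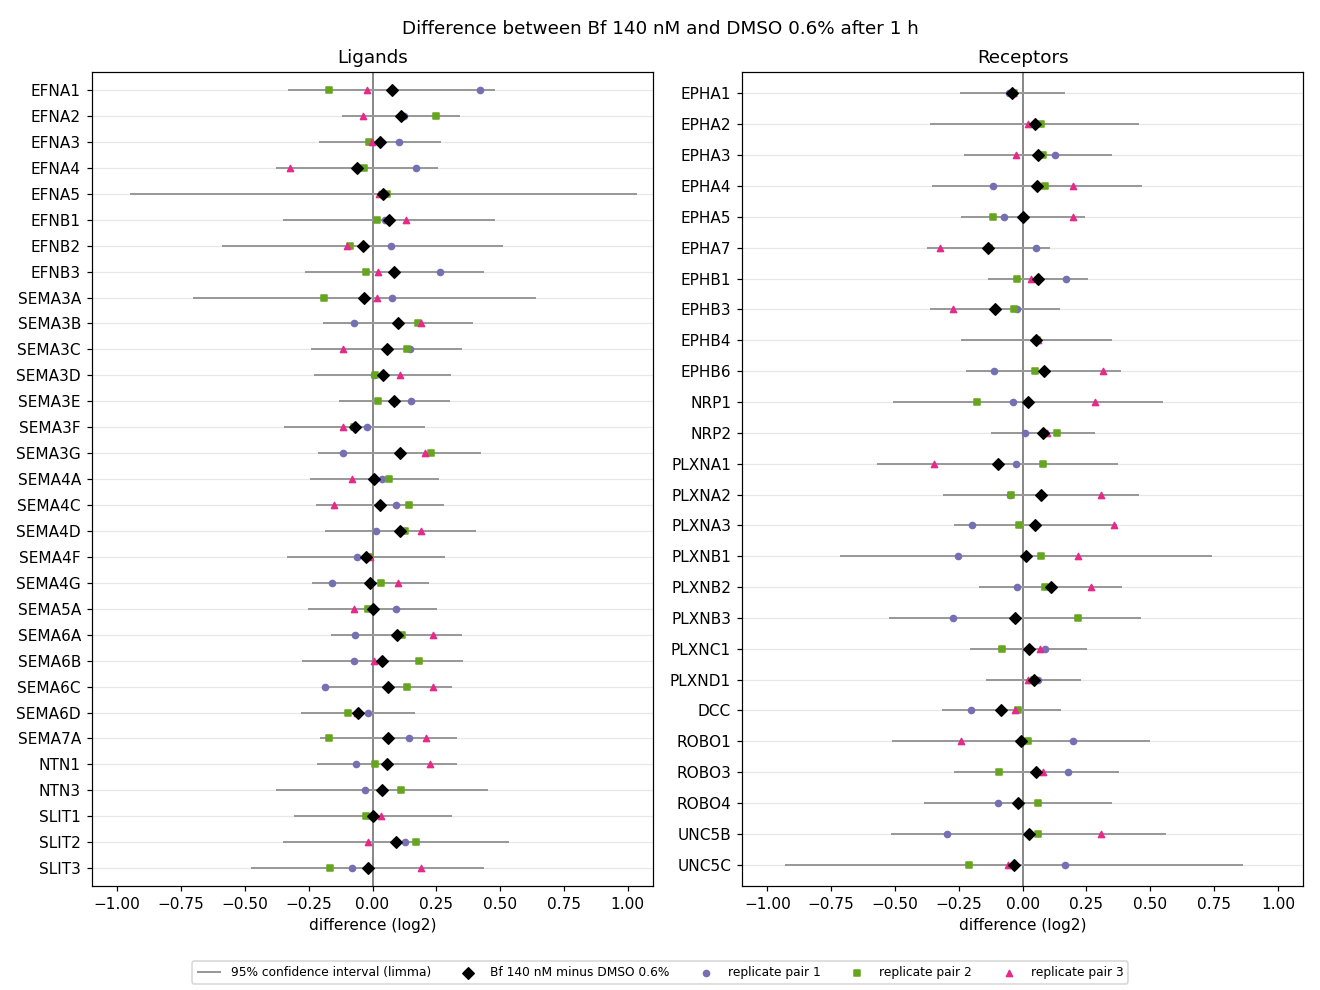
The difference Bf 140 nM minus DMSO 0.6% of the 57 genes, in log2 units, is plotted by replicate pair and as the mean with its 95% confidence interval from limma, ligands on the left and receptors on the right. Every interval, fitted without the replicate block, includes 0, and EFNA5 and UNC5C have the widest.

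The genes with the smallest p among positive differences were EFNA2, PLXNB2, SEMA3E and NRP2, and none approached the threshold. EFNA2, an A-class ephrin, had 6.38, 6.34 and 6.30 in Bf 140 nM, against 6.25, 6.10 and 6.34 in DMSO 0.6% (difference 0.11, interval -0.12 to 0.34). SEMA3E, which can bind plexin-D1 without a neuropilin, had 5.82, 5.86 and 5.75 in Bf 140 nM, against 5.67, 5.83 and 5.66 in DMSO 0.6% (difference 0.09, interval -0.13 to 0.30). Both genes were below the array median on all 6 arrays and their groups overlapped.

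NRP2 was the only one of the 57 genes whose groups did not overlap with Bf 140 nM higher, where 1.81% of all genes did so. With Bf 140 nM lower the count was 0 of 57, where 0.577% of all genes did so. NRP2, a co-receptor of class 3 semaphorins, had 7.60, 7.73 and 7.61 in Bf 140 nM, against 7.59, 7.60 and 7.52 in DMSO 0.6%. The lowest Bf 140 nM value was 7.601 and the highest DMSO 0.6% value 7.596, so the groups were separated by little. The difference was 0.08 (interval -0.12 to 0.28), and an exact two-sided permutation test gave p = 0.1, the smallest that 3 arrays against 3 allow. The other NRP2 probe sets had differences of -0.04, -0.03, -0.08 and -0.00, and after quantile normalization or with equal array medians the groups of NRP2 overlapped.

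Among negative differences the smallest p values were those of EPHA7, EPHB3, DCC and SEMA6D. EPHA7, an Eph receptor known from cortical and retinal maps, had 5.83, 5.69 and 5.56 in Bf 140 nM, against 5.78, 5.82 and 5.89 in DMSO 0.6%. Its difference of -0.13 (interval -0.38 to 0.11) had the smallest p of all 57 genes, 0.224 by limma before adjustment and 1.00 after it, and the gene was below the array median throughout. EPHB3 had 8.07, 7.95 and 7.77 in Bf 140 nM, against 8.09, 7.99 and 8.04 in DMSO 0.6% (difference -0.11, interval -0.36 to 0.15). In both genes replicate 3 had the largest difference of the 3 pairs, -0.32 for EPHA7 and -0.27 for EPHB3. DCC had 6.12, 6.27 and 6.10 in Bf 140 nM, against 6.32, 6.29 and 6.14 in DMSO 0.6% (difference -0.08, interval -0.32 to 0.15). SEMA6D, a transmembrane semaphorin, had 6.99, 6.97 and 6.83 in Bf 140 nM, against 7.004, 7.07 and 6.89 in DMSO 0.6% (difference -0.06, interval -0.28 to 0.17). Each Bf 140 nM value of EPHB3, DCC and SEMA6D stood below the control of its number, whereas EPHA7 was higher in replicate 1, and the groups of all 4 genes overlapped. The other EPHB3 probe set had a difference of 0.10.

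The replicate number moved several guidance genes by more than the treatment did. The replicate 3 array lay below the mean of the replicate 1 and 2 arrays in both treatments for 38 of 57 genes (66.7%), where 45.8% of all genes did so. It lay above that mean in both treatments for 9 of 57, where 3694 of all 11963 genes did so. The median shift of replicate 3 was -0.15 in Bf 140 nM and -0.17 in DMSO 0.6%, against -0.03 and -0.07 over all genes in the same order. The median of all probe sets was lower on these arrays too, 7.78 and 7.73, against 7.94 to 7.97 on the others. The share lower in both treatments was 57.1% of the 21 guidance genes above the array median and 72.2% of the other 36. Guidance genes were less often above that median than all genes, and a comparison at equal brightness was not made. The part of RNA quality in these shifts was not tested.

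**Figure D4:**
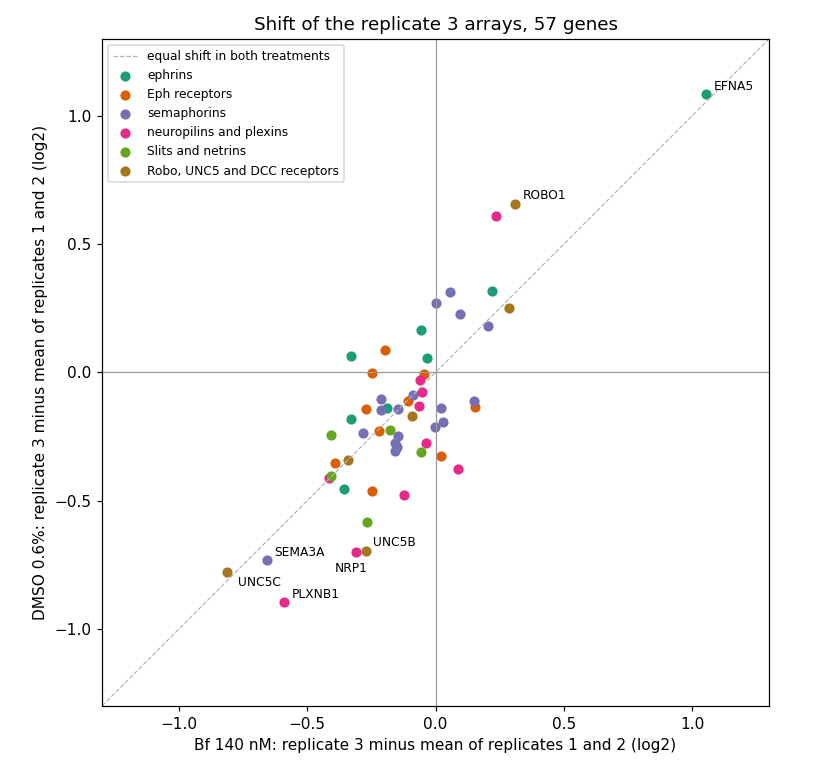
The replicate 3 value minus the mean of replicates 1 and 2, in log2 units, is plotted for the 57 genes in Bf 140 nM on the horizontal axis and in DMSO 0.6% on the vertical axis. Most points lie near the diagonal of equal shift, with EFNA5 at 1.06 and 1.08 and UNC5C at -0.81 and -0.78.

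EFNA5, which repels axons in topographic maps, showed the largest such shift. It had 9.30, 9.22 and 10.32 in Bf 140 nM, against 9.25, 9.16 and 10.29 in DMSO 0.6%. Replicate 3 alone was high in either treatment, and the difference between the treatments was 0.05, 0.06 and 0.02 by replicate number. The interval of its mean difference of 0.04 was -0.95 to 1.04 without the replicate block and -0.13 to 0.22 with it.

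UNC5C, a repulsive netrin receptor, had 9.94, 9.15 and 8.73 in Bf 140 nM, against 9.78, 9.36 and 8.79 in DMSO 0.6%. SEMA3A, the class 3 repellent that collapses growth cones, had 8.16, 7.93 and 7.39 in Bf 140 nM, against 8.08, 8.12 and 7.37 in DMSO 0.6%. In both genes replicate 3 was the lowest in either treatment. The mean difference between the treatments was -0.03 for each, with intervals of -0.93 to 0.86 for UNC5C and -0.70 to 0.64 for SEMA3A. With the replicate block they were -0.24 to 0.17 for UNC5C and -0.22 to 0.16 for SEMA3A.

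Probe sets of 1 gene did not always shift alike in replicate 3. Among the 28 genes with several probe sets, the shifts differed by more than 0.5 in 4, which were SEMA3C, NRP1, EFNA5 and SEMA4F. The brighter SEMA3C probe set had 11.64, 11.77 and 11.76 in Bf 140 nM, against 11.49, 11.64 and 11.88 in DMSO 0.6%. The other had 8.35, 8.11 and 6.59 in Bf 140 nM, against 8.20, 8.22 and 6.69 in DMSO 0.6%, so that replicate 3 was low in both treatments by this probe set and not by the first. The second EFNA5 probe set had 6.77, 6.90 and 6.74 in Bf 140 nM, against 6.87, 6.90 and 6.59 in DMSO 0.6%, without the rise in replicate 3. Of 36 such further probe sets, 20 had a difference between the treatments of the same sign as the brightest probe set of their gene, and 16 the opposite sign.

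The genes that act with or below these receptors were likewise without a call. Of 22 co-receptors and other guidance receptors listed, 18 were measured and 11 were above the array median on all arrays. By limma 0 of the 18 passed in either direction, 0 had an unadjusted p under 0.05, and the median difference was 0.02. Among them were SDC3, a heparan sulphate proteoglycan, at 0.14, GPC1, a glypican that binds Slits, at 0.11, DSCAM, a netrin receptor, at -0.07, and MET, a partner of plexin-B1, at -0.05. Of 55 cytoplasmic effectors listed, 46 were measured, 36 were above the array median on all arrays and 0 passed, with a median difference of 0.00.

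LIMK1 is the kinase that inactivates the actin-severing cofilin below plexins and other receptors. It was the 1 of 46 effectors with an unadjusted p under 0.05, a level that 0.0585% of all genes reached. With the replicate block it was the 1 of 46 as well, where 0.828% of all genes were under that level. It had 7.74, 7.81 and 7.73 in Bf 140 nM, against 7.55, 7.64 and 7.45 in DMSO 0.6%. It was the 1 of 46 effectors whose groups did not overlap with Bf 140 nM higher, where 1.81% of all genes did so. LIMK1 has 3 probe sets, and only the brightest was read. The LIMK1 difference was 0.21 (interval 0.00 to 0.42) with an adjusted p of 1.00 by limma, and the gene was below the array median on all 6 arrays. MICAL1, the oxidoreductase that takes actin filaments apart below plexin-A, differed by 0.11. DPYSL2, the CRMP2 protein of semaphorin-3A signalling, differed by -0.09, and ARHGEF11, which binds B plexins, by -0.15.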

How the data were processed

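RNA of 6 SH-SY5Y samples was hybridized to Affymetrix GeneChip arrays. After GCOS and VSN normalization in R 2.5.0, log2 values were deposited by the authors in a single table. Base 2 was taken from the method. The sources used here do not give the arrays that were normalized together, and no Present-call filter was applied. The platform's annotation gave a single symbol to 19064 probe sets, several to 1043 and none to 2108, with 62 controls left out. Differences were fitted with limma 3.58.1 in R 4.3.3 (lmFit, eBayes, no filter) on 22215 probe sets, tested on simulated data, at an adjusted p under 0.10.

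Replicate numbers came from the titles. Arrays of the same number deviated together from the group means (r = 0.725, 0.783 and 0.880 for replicates 1, 2 and 3), so the numbers pair the arrays by their values, and no source says that a number marks a shared day. The methods name no pairing, so the block was an alternative. Others were SAM, quantile normalization, equal medians, filters, eBayes settings, array weights, other thresholds, each array left out, all probe sets averaged, and other levels for expression.

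The genes, lists and pairs were chosen with earlier results of these data known. Array values are given for genes of pairs above the median, the 4 smallest p values in each direction, the 4 largest replicate 3 shifts and LIMK1, with SEMA3C and the second NRP1 and EFNA5 probe sets added after their values were seen. For each other list, up to 2 genes with the smallest p in each direction were named, and CNTN2 was added because its groups did not overlap.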

Additional observations from a re-analysis of the deposited data

How the results depend on the processing

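No guidance gene was called under any alternative run, among them the replicate block (0 genes), SAM unpaired and paired, other scalings, thresholds and each array left out. Of the 57 genes 24 were tested with the filter at the median level and 47 with that at the lower quartile. The median difference, 0.04 as deposited, was 0.0196 after quantile normalization, 0.0189 with equal array medians, 0.0259 with the probe sets of each gene averaged and 0.0251 without both replicate 3 arrays, a setting chosen after seeing the data. Leaving out 1 array moved it between -0.0256 (without DMSO 0.6% replicate 3) and 0.0759 (without Bf 140 nM replicate 3). Genes above 0 in all replicate pairs numbered 3 after quantile normalization, 3 with equal medians and 16 without replicate 3 (28.1%, against 24.9% of all genes), where 12 were below 0 in both remaining pairs (21.1%, against 18.7%). Genes with groups apart and Bf 140 nM higher numbered 0 after quantile normalization, 0 with equal medians, 0 with averaged probe sets and 5 without replicate 3 (8.77%, against 12.4% of all genes). With Bf 140 nM lower they numbered 1, 1, 1 and 6 in the same order, the last being 10.5%, against 8.28% of all genes. Over all genes the shares in the first 3 settings were 1.24%, 0.911% and 2.01% higher and 1.32%, 0.702% and 0.527% lower. At the upper quartile 9 genes and 1 pair passed the level, and the mean over the arrays gave 13 pairs. Of 171 alternative differences that could move, of the 18 genes given by array, 141 stayed within the SD of their replicate pairs and 30 moved further. The number of arrays limits precision, and dim probe sets understate change.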
